A study of Mus musculus with 6 samples.

Results

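Histone genes were followed in thymus RNA of K5-rtTA:TetO-RANKL mice and of control mice. Members were the rows of the gene count table whose symbol begins with Hist1h to Hist4h, H2af or H3f3, or is H1f0 or H1fx, and which held any reads. Of 82 rows with such a symbol 13 held 0 reads in all 6 libraries, which left 69 members among 24054 genes in the table, 20797 of them with reads. The members were 56 cluster genes, with 5 of H1, 13 of H2A, 16 of H2B, 10 of H3 and 12 of H4, and 13 variant genes. Of the cluster genes 46 belong to the Hist1 locus, 6 to Hist2, 3 to Hist3 and 1 to Hist4.

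The RANKL group (n = 3) carried both transgenes. In these mice the K5 (keratin 5) promoter, active in basal and thymic epithelial cells, drives the doxycycline-dependent activator rtTA, which switches on RANKL, the cytokine encoded by Tnfsf11, from the TetO transgene. The control group (n = 3) is called monogenic in the series text, so its mice carried one transgene, which the labels do not name. Both groups were given doxycycline in food and water. The series text gives a start at 8 weeks of age and 1 week of treatment, whereas the sample labels give 9 weeks of age and 2 weeks, and the sources used here do not settle which applies. Stranded mRNA libraries, a kind that selects polyadenylated RNA, were made from 250 ng of whole-thymus RNA. The labels do not state that each library is a different animal, and p-values cover the variation among these libraries, which may be technical.

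Histones package DNA into nucleosomes, and linker histone H1 binds the DNA between them. Cluster genes are expressed mainly in S phase, have no introns as a rule, and their mRNAs end in a stem-loop bound by SLBP in place of a poly(A) tail. Variant genes encode replacement histones such as H2A.Z, H2A.X, macroH2A and H3.3, are mostly transcribed outside S phase as well, and give spliced or unspliced polyadenylated mRNA. The thymus of a young mouse holds many dividing thymocytes.

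The 3′ stem-loop is shown first because it marks the mRNAs that poly(A) selection captures poorly. An inverted repeat of the form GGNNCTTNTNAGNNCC was searched on the transcribed strand of GENCODE M21 transcripts on GRCm38. It has a stem of 6 bases with a loop of 4. After the stop codon, 38 of 55 cluster members matched to the annotation held it, as did 1 of 12 matched variant members, H2afx. At any position of a protein-coding transcript, it was found in 8 of 21821 other protein-coding genes (0.0367%). Of the other cluster members, 11 had no base annotated after the stop codon and 6 had bases but no match. Of those 6, Hist1h2af had 1 base and Hist1h2ah had 2, too few to hold a stem-loop. A missing match therefore does not show that a gene lacks the stem-loop. The most frequent letters, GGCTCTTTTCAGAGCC, were those of 20 members. Each line gives 7 flanking bases on both sides with the stem-loop in capitals, for the cluster gene that rose, for a cluster gene whose groups did not differ by the test, for 2 cluster genes that fell, and for the variant gene that holds one.
Hist1h1c, chr13:23739512-23739527, plus strand: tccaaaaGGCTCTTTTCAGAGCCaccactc
Hist1h4i, chr13:22040966-22040981, minus strand: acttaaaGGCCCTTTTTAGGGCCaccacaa
Hist1h1d, chr13:23555787-23555802, plus strand: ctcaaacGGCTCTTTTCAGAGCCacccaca
Hist1h3c, chr13:23745047-23745062, minus strand: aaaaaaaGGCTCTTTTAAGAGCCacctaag
H2afx, chr9:44335240-44335255, plus strand: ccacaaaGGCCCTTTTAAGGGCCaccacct

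What the annotation holds beyond the stem-loop differed among the members. In 20 of the 38 cluster members the GENCODE transcript ran on for at least 100 bases after it, and in 18 for fewer. Hist1h1c had 840 bases after its stem-loop, Hist1h4i 330, Hist1h1d 4884, Hist3h2a 1643 and H2afx 822, whereas Hist1h3c had 74. Hist2h2be had 2192 bases after its stop codon with no match, and Hist1h2bc was annotated as a spliced transcript of 2 exons and 1156 bases with no match. Of the 14 cluster members with at least 100 reads over the 6 libraries, 8 had at least 100 bases after the stem-loop, 1 had fewer, and 5 had no match. Median reads per gene were 65.0 with the longer end, 41.0 with the shorter end and 37.0 with no match. The class with no match also holds the members with no base annotated after the stop codon, and Hist3h2bb-ps, which was not matched to the annotation. An annotated end does not show that reads came from it, since the table gives 1 count per gene.

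**Figure D1:**
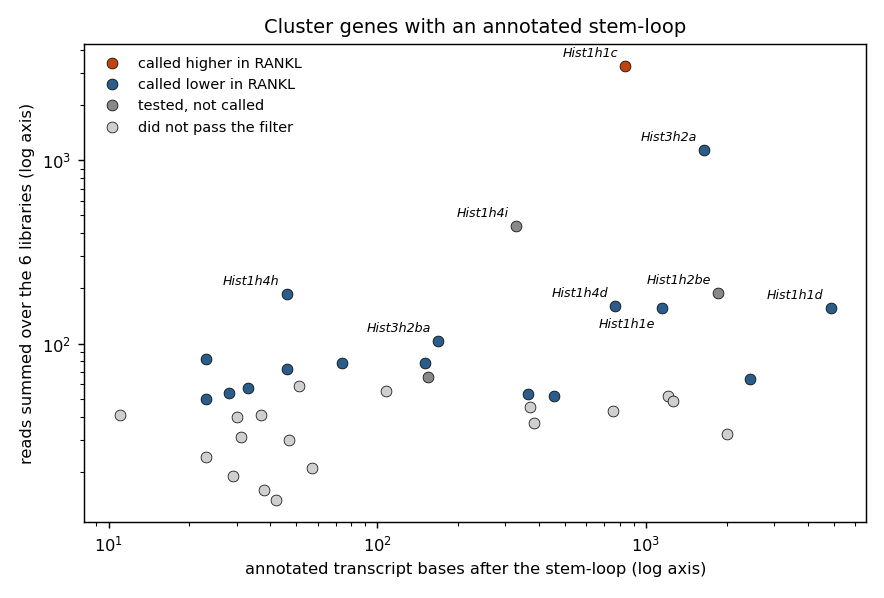
Reads summed over the 6 libraries (vertical, log axis) against annotated bases after the stem-loop (horizontal, log axis) for 38 cluster genes, coloured by call in RANKL relative to control; genes with at least 100 reads are named. Hist1h1c and Hist3h2a, with 840 and 1643 bases after the stem-loop, lie highest, and Hist1h4h is the named gene with the shortest annotated end.

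The 6 libraries held 18254870 to 25357060 counts each, and 3 reads in a library stood for 0.118 to 0.164 CPM on those totals. CPM, the read count scaled to library size, was otherwise taken on totals adjusted by TMM factors. Floors and intervals cover counting error only. The targeted gene Tnfsf11 stood at 3334, 4812 and 2390 CPM in RANKL thymus, against 6.01, 6.34 and 8.89 CPM in control thymus. Markers of cell types moved as well. The summed CPM of 12 double-positive thymocyte markers, such as Cd4, Cd8a and Themis, was 227 to 1008 in RANKL thymus, against 10370 to 11450 in control thymus, all 12 called lower, and RANKL replicate 3 held the highest RANKL value. Sums were 4278 to 5641 CPM in RANKL and 554 to 690 CPM in control for 7 epithelial markers, 2936 to 5376 CPM in RANKL and 18.8 to 44.8 CPM in control for 7 neutrophil markers, 3883 to 7650 CPM in RANKL and 373 to 471 CPM in control for 5 fibroblast markers, and 1767 to 2439 CPM in RANKL and 844 to 1062 CPM in control for 5 macrophage markers. Every gene of these 4 lists was called higher. Among all tested genes 33.8% were called higher and 29.6% lower. Of 5 B cell markers edgeR called 0, with sums of 43.1 to 110 CPM in RANKL and 100.5 to 110 CPM in control, while 1, Ms4a1, had an unadjusted p under 0.05 and was called by DESeq2. Of 5 erythroid markers 2 could be tested, of which edgeR called 0, DESeq2 called 0 and 0 had an unadjusted p under 0.05. The globin rows Hba-a1 and Hbb-bs held 0 reads in all 6 libraries, for a reason not tested, so globin was not followed. Of 7 germ cell markers 2 could be tested and 1, Ddx4, was called higher. The part of these changes in the histone results was not tested, and in whole tissue fewer cells of a type and less RNA per cell cannot be told apart.

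Most histone genes that could be tested were lower in RANKL thymus. Of all 16096 genes kept by the low-count filter, 63.4% were called by edgeR's quasi-likelihood test at an adjusted p under 0.05, 33.8% higher and 29.6% lower in RANKL, with a median log2 fold change of -0.02. Of the 69 histone genes 39 passed that filter. Among the 29 tested cluster genes 24 fell, 1 rose and 4 were not called, with a median log2 fold change of -2.33 and a range of -3.73 to 1.20. Among the 10 tested variant genes 7 fell, 2 rose and 1 was not called, with a median of -1.12. Among the cluster genes that fell, only Hist2h2be, Hist3h2a, Hist1h1e and Hist1h4h could pass the filter on their RANKL reads. The others passed through their control reads alone and had to be low in RANKL. The tested cluster genes and their median therefore do not speak for all 56. With no filter, where 28.6% of 20797 genes were called higher and 25.6% lower, 36 of 56 cluster genes fell, 1 rose and 19 were not called, and 7 of 13 variant genes fell and 2 rose. The mean was higher in control thymus for 53 of 56 cluster genes. All 3 RANKL values lay below all 3 control values for 43 of 56 cluster genes and 7 of 13 variant genes, against 27.2% of genes with reads. The reverse held for 1 cluster gene and 2 variant genes, against 33.9% of genes with reads.

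**Figure D2:**
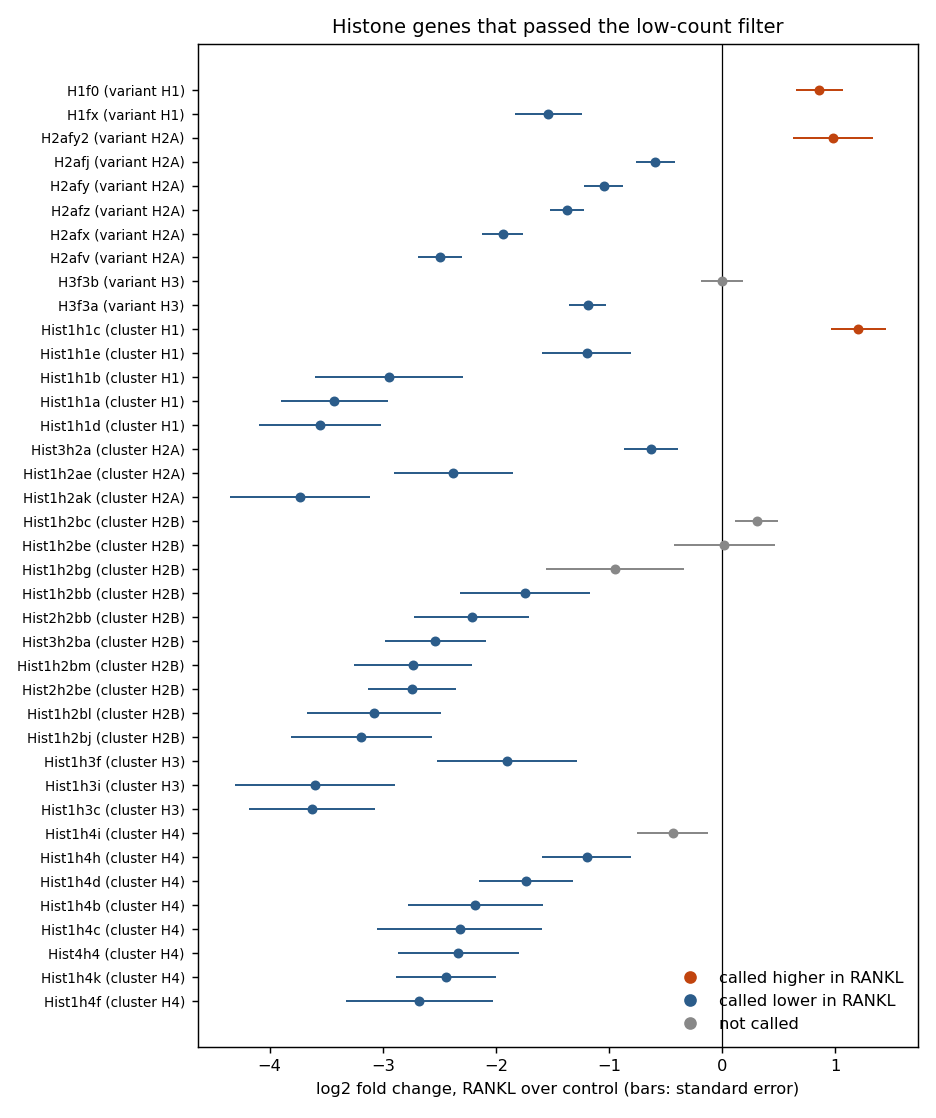
Log2 fold change of RANKL over control (horizontal) with its standard error for the 39 histone genes that passed the filter, variant genes above and cluster genes below, by family. Values run from -3.73 to 1.20; H1f0, H2afy2 and Hist1h1c are the genes called higher.

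Linker histone genes moved in both directions. Hist1h1c, which encodes H1.2, a linker histone also made outside S phase, lies at chr13:23738807-23739531 in the RefSeq table of GRCm38.p6 as 1 exon. It stood at 31.9, 46.9 and 28.3 CPM in RANKL thymus, against 17.7, 12.1 and 16.8 CPM in control thymus. The groups did not overlap, with a log2 fold change of 1.20 ± 0.24 (SE; edgeR quasi-likelihood adjusted p = 0.00187), and it was the one cluster gene that rose. H1f0, the replacement linker histone H1.0 that accumulates in cells that have stopped dividing (chr15:79028212-79030504), was at 204, 184 and 205 CPM in RANKL thymus, against 85.2, 96.2 and 146 CPM in control thymus. All RANKL values lay above all control values, and the log2 fold change was 0.86 ± 0.21 (edgeR adjusted p = 0.00541). It did not pass edgeR's test against a 1.5-fold change (adjusted p = 0.0774), and its call held with each library left out.

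The other linker genes fell. Hist1h1d, encoding H1.3, had 5, 5 and 3 reads in RANKL thymus, against 48, 68 and 28 reads in control thymus, a log2 fold change of -3.56 ± 0.54 (edgeR adjusted p = 0.000353). Hist1h1a, encoding H1.1, had 3, 4 and 4 reads in RANKL thymus, against 47, 30 and 35 reads in control thymus, and fell by 3.43 ± 0.47 (adjusted p = 0.000195, edgeR). Hist1h1b, encoding H1.5, fell with a log2 fold change of -2.94 (edgeR adjusted p = 0.00328), and its groups did not overlap at 2 to 9 reads in RANKL and 16 to 46 in control. Hist1h1d, Hist1h1a and Hist1h1b passed the low-count filter through their control reads alone, so their place among tested genes depended on their control level. Hist1h1e, encoding H1.4, fell less, at 0.538, 1.02 and 0.754 CPM in RANKL thymus against 1.74, 1.85 and 1.77 CPM in control thymus, with a log2 fold change of -1.20 ± 0.39 (edgeR adjusted p = 0.0236). Leaving out control replicate 2, RANKL replicate 1 or RANKL replicate 3 took that call away. The variant linker gene H1fx stood at 3.71, 3.90 and 3.82 CPM in RANKL thymus, against 12.7, 7.16 and 13.3 CPM in control thymus, and its log2 fold change was -1.54 ± 0.30 (edgeR adjusted p = 0.00151). Within a library, Hist1h1c reads were 59.3, 46.1 and 37.6 times those of Hist1h1e in RANKL thymus, against 10.2, 6.53 and 9.49 times in control thymus, and the groups did not overlap. In all 6 such ratios were computed, each with an exact two-sided permutation p of 0.1, the smallest that 3 against 3 allows, and an adjusted p of 0.1.

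Promoters of Hist1h1c and Hist1h1a are shown because both genes lie in the same stretch of chromosome 13 and moved in opposite directions. Each window runs from 250 bases before to 50 after the RefSeq start (GRCm38.p6), with matches to 4 motifs, searched on both strands, in capitals. These motifs were the CCAAT box with the letters CCAAT, the TATA box with TATAAA, the octamer with ATTTGCAT and the H1 box of linker histone genes with AAACACA, and their matches did not overlap in either window.
Hist1h1c, chr13:23738557-23738856, plus strand: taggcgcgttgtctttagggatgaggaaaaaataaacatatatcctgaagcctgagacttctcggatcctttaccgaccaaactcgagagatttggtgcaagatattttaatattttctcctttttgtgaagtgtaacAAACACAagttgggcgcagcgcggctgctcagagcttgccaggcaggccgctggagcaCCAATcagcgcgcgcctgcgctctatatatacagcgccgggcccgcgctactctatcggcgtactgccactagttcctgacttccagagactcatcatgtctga
Hist1h1a, chr13:23763418-23763717, plus strand: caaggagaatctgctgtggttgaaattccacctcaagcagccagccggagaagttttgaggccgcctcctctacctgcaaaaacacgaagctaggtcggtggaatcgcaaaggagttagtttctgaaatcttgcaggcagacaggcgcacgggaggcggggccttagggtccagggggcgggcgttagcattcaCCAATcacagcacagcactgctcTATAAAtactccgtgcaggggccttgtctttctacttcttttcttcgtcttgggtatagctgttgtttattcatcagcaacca
The Hist1h1c window held CCAAT and the H1 box, and the Hist1h1a window CCAAT and TATAAA. The H1 box was in 4 of 5 cluster H1 promoters and in 8.22% of 27025 promoters in the RefSeq table. Of 50 cluster members matched to it, 84.0% held CCAAT, 62.0% TATAAA and 24.0% the octamer, against 41.1%, 15.7% and 1.97% of all promoters. The octamer was in 6 of 13 H2A and 6 of 13 H2B promoters and in none of 5 H1, 8 H3 or 11 H4 promoters, while CCAAT was in all of the H1, H2A, H2B and H3 promoters and in 3 of 11 H4 promoters. Variant members, of which 11 were matched, held CCAAT in 63.6% and TATAAA in 9.09%. Only exact letters were marked, so near variants of TATAAA in the Hist1h1c window and of the H1 box in the Hist1h1a window stayed unmarked. A match describes letters in these windows and no binding was measured.

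Cluster reads came mostly from a few genes. Of 12591 cluster reads over the 6 libraries, 71.8% came from 4 genes, Hist1h2bc, Hist1h1c, Hist2h2be and Hist3h2a, and the median cluster gene had 52.5 reads in all. Near-identical copies add to the uncertainty, since 51 cluster members share at least 1 stretch of 50 coding bases with another gene and the treatment of multiply aligned reads is not given in the sources used here.

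**Figure D3:**
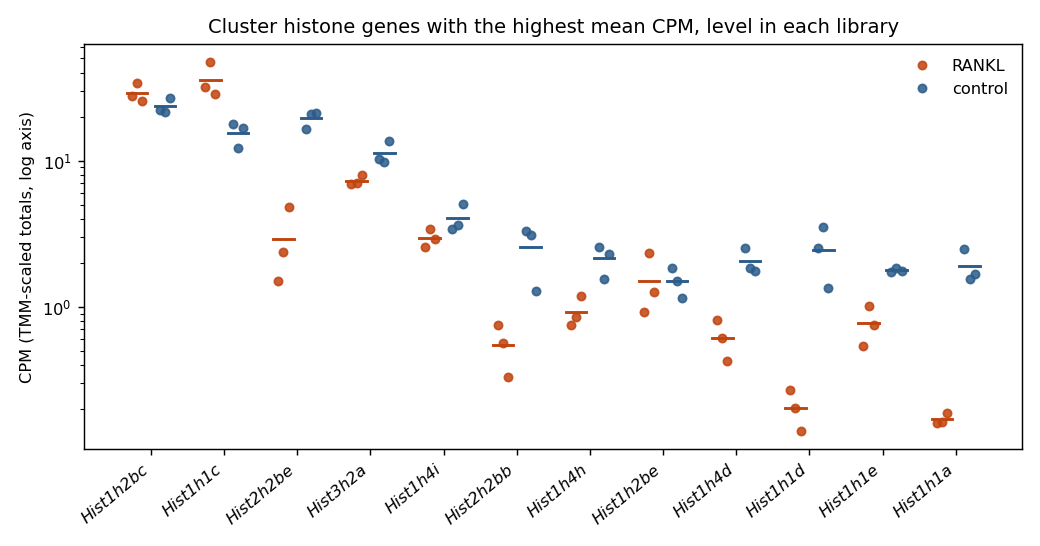
CPM (log axis) in each library for the 12 cluster genes with the highest mean, RANKL left of control for each gene; points are libraries and bars are means. Hist1h1c lies higher in RANKL, Hist1h2bc and Hist1h2be overlap between groups, and Hist2h2be, Hist1h1d and Hist1h1a lie lower in RANKL by the widest margins among those drawn.

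Of the 2 H2B genes with the most reads 1 fell and 1 was not called. Hist1h2bc (chr13:23684199-23692480) was at 27.6, 34.0 and 25.4 CPM in RANKL thymus, against 22.1, 21.5 and 26.9 CPM in control thymus. Its groups overlapped, and the log2 fold change of 0.30 ± 0.19 did not pass (edgeR adjusted p = 0.18). Hist2h2be (chr3:96221072-96223738), an H2B gene known in human cells to yield polyadenylated mRNA after differentiation, was at 1.51, 2.36 and 4.81 CPM in RANKL thymus, against 16.3, 20.7 and 21.3 CPM in control thymus. It fell with a log2 fold change of -2.74 ± 0.39 (edgeR adjusted p = 0.00025), and RANKL replicate 3 was the highest of the 3 RANKL libraries. Without that library the log2 fold change was -3.29. Reads of Hist1h2bc were 18.3, 14.4 and 5.29 times those of Hist2h2be in RANKL thymus, against 1.36, 1.04 and 1.26 times in control thymus. Of the coding windows of 50 bases in Hist1h2bc 97.6% also occur in other genes, and in Hist2h2be none do.

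Of 16 cluster H2B genes 10 could be tested, and 6 did not pass the filter. Of the tested ones 7 fell and 3 were not called, against 29.6% of all tested genes called lower. Of those that fell, all but Hist2h2be passed the filter through their control reads alone and had to be low in RANKL. Their share called lower is therefore not a result about H2B genes. Hist2h2bb, encoding H2B at the Hist2 locus, was at 0.754, 0.569 and 0.330 CPM in RANKL thymus, against 3.32, 3.09 and 1.29 CPM in control thymus, with a log2 fold change of -2.21 ± 0.51 (edgeR adjusted p = 0.00382). Hist1h2be stood at 0.915, 2.32 and 1.27 CPM in RANKL thymus, against 1.84, 1.495 and 1.15 CPM in control thymus, and was not called at a log2 fold change of 0.02 ± 0.44 (edgeR adjusted p = 0.972), a sign that turned under several alternatives. Hist1h2bg, with 3 to 14 reads in RANKL and 8 to 22 in control, was not called either, at -0.95 ± 0.61.

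Of the other core families, 3 of 13 H2A, 3 of 10 H3 and 8 of 12 H4 cluster genes passed the filter. All of these fell except Hist1h4i, against 29.6% of all tested genes called lower. Of those that fell, all but Hist3h2a and Hist1h4h passed through their control reads alone and had to be low in RANKL. Their share called lower is therefore not a result about these families. Hist3h2a, an H2A gene of the small Hist3 locus (chr11:58954685-58955192), stood at 6.89, 6.99 and 7.92 CPM in RANKL thymus, against 10.3, 9.79 and 13.7 CPM in control thymus. Its log2 fold change was -0.63 ± 0.24 (edgeR adjusted p = 0.0416), the smallest change among cluster genes that were called, and the call was lost on unscaled library totals and without any 1 of the 3 RANKL libraries or control replicate 3. All of its coding windows also occur in other genes. Hist1h4i encodes H4 and was at 2.58, 3.42 and 2.92 CPM in RANKL thymus, against 3.43, 3.61 and 5.07 CPM in control thymus. All RANKL values lay below all control values by a narrow margin, and the log2 fold change of -0.44 ± 0.32 did not pass (edgeR adjusted p = 0.247).

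A further pair of H4 genes was among the 12 highest. Hist1h4h had 14, 21 and 25 reads in RANKL thymus, against 49, 30 and 48 reads in control thymus, and its log2 fold change of -1.20 ± 0.40 (edgeR adjusted p = 0.0237) was not called once any library other than RANKL replicate 3 and control replicate 2 was left out. Hist1h4d had 15, 15 and 9 reads in RANKL thymus, against 48, 36 and 37 reads in control thymus, and fell by 1.74 ± 0.42 on the log2 scale (edgeR adjusted p = 0.00486). Hist1h4d passed the low-count filter through its control reads alone, so its place among tested genes depended on its control level.

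The largest decreases belonged to genes with almost no reads in RANKL thymus. These genes passed the low-count filter through their control reads alone, so their place among tested genes depended on a high control level. Hist1h2ak, an H2A gene, had 1, 2 and 1 reads in RANKL libraries, against 23, 11 and 19 reads in control libraries, with a fitted log2 fold change of -3.73 ± 0.62 (edgeR adjusted p = 0.000603). Hist1h3c, an H3 gene, had 2 reads in each RANKL library, against 33, 19 and 20 reads in control libraries, with a fitted log2 fold change of -3.63 ± 0.56 (edgeR adjusted p = 0.000376). Hist1h3i, another H3 gene, had 0, 2 and 1 reads in RANKL libraries, against 13, 13 and 11 in control libraries. Its fitted log2 fold change was -3.60 ± 0.71 (edgeR adjusted p = 0.00161) and reached -4.32 without RANKL replicate 2. At such counts the size is loosely fixed: the ratio of summed CPM for Hist1h3i was 0.0747, with an exact binomial 95% counting interval of 0.0147 to 0.236.

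Sums were taken on both sides of a mean of 1 CPM, a split that the change itself can move. The 44 cluster genes with a mean under 1 CPM over all libraries together held 112, 165 and 91 reads in RANKL thymus, against 659, 484 and 446 reads in control thymus. In CPM these sums were 6.03, 6.71 and 4.29 in RANKL thymus, against 34.7, 24.95 and 21.3 in control thymus, which is 4.76-fold lower in RANKL on the group means. Each core family was lower by a like factor in its summed low genes, 4.48-fold for 12 H2A, 4.82-fold for 12 H2B, 4.43-fold for 10 H3 and 4.72-fold for 9 H4 genes. The 12 cluster genes with a mean of at least 1 CPM summed to 74.7, 99.4 and 73.7 CPM in RANKL thymus, against 86.9, 82.6 and 94.9 CPM in control thymus, and these groups overlapped. Hist1h2bc and Hist1h1c make up most of that sum in RANKL thymus. The low class holds 7 genes whose control mean was 1.05 to 1.56 CPM. Split by the control mean alone, chosen after seeing the data, the 37 genes under 1 CPM summed to 4.41, 5.16 and 3.16 CPM in RANKL thymus, against 23.6, 17.2 and 14.2 CPM in control thymus, 4.31-fold lower. The 19 genes at or above it summed to 76.3, 101 and 74.8 CPM in RANKL thymus, against 98.1, 90.4 and 102 CPM in control thymus, with overlap. Over all 56 cluster genes the sum was 80.8, 106 and 78.0 CPM in RANKL, against 122, 108 and 116 CPM in control, a log2 ratio of -0.38.

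The 3 cluster genes known from the male germ line, Hist1h1t, Hist1h2aa and Hist1h2ba, had 0 reads in all libraries of both groups, which allows up to 0.164 CPM in the shallowest library. Of their coding windows of 50 bases 0.0%, 2.35% and 38.2% also occur in other genes. For the other 9 of the 12 cluster rows with 0 reads every coding window does, and a count of 0 in those 9 may depend on how shared reads were treated.

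Variant genes carried most histone reads. Variant genes took 95.6%, 94.1% and 96.0% of histone reads in RANKL libraries, against 95.4%, 95.8% and 96.4% in control libraries, and histone genes together took 0.185%, 0.176% and 0.201% of all reads in RANKL, against 0.256%, 0.265% and 0.312% in control. Per kilobase of annotated transcript, the median level of 12 matched variant genes was 28.9 CPM in RANKL and 90.5 CPM in control, and that of 55 matched cluster genes was 0.231 CPM in RANKL and 1.07 CPM in control. The highest per kilobase were H3f3b at 367 CPM in RANKL and 367 CPM in control and H2afz at 168 CPM in RANKL and 433 CPM in control.

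**Figure D4:**
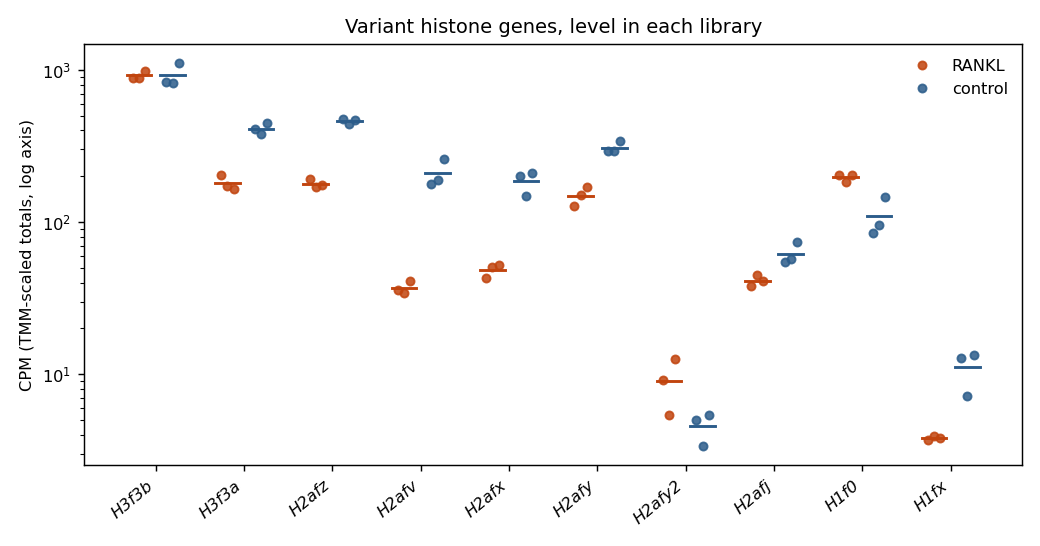
CPM (log axis) in each library for the 10 tested variant genes, RANKL left of control; points are libraries and bars are means. H3f3b overlaps between groups while H3f3a does not, H1f0 and H2afy2 lie higher in RANKL, and H2afv shows the widest gap.

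H3f3a and H3f3b both encode the replacement histone H3.3, with the same protein from different mRNAs. H3f3a fell and H3f3b was not called. H3f3b (chr11:116021961-116026039) was at 884, 890 and 991 CPM in RANKL thymus, against 834, 824 and 1109 CPM in control thymus. The groups overlapped, and the log2 fold change was -0.00 ± 0.18 (edgeR adjusted p = 0.998), with a sign that turned under several alternatives. H3f3a (chr1:180802560-180813605) was at 205, 172 and 165 CPM in RANKL thymus, against 409, 378 and 448 CPM in control thymus, and fell with a log2 fold change of -1.19 ± 0.17 (edgeR adjusted p = 0.000213). The ratio of H3f3b to H3f3a reads was 4.32, 5.18 and 5.99 in RANKL thymus, against 2.04, 2.18 and 2.47 in control thymus. Of the coding windows 46.4% in H3f3b and 92.8% in H3f3a also occur in other genes.

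Both genes of H2A.Z, a variant found at promoters and regulatory regions, fell. H2afz (chr3:137864487-137866922) was at 192, 169 and 176 CPM in RANKL thymus, against 474, 444 and 471 CPM in control thymus, a log2 fold change of -1.37 ± 0.15 (edgeR adjusted p = 5.77e-05). H2afv (chr11:6427226-6444511) stood at 35.9, 34.2 and 41.0 CPM in RANKL thymus, against 178, 189 and 260 CPM in control thymus, and fell by 2.50 ± 0.19 on the log2 scale (edgeR adjusted p = 1.02e-05), the largest decrease of a variant gene. H2afv reads were 0.187, 0.202 and 0.233 of H2afz reads in RANKL thymus, against 0.375, 0.425 and 0.553 in control thymus. All coding windows of H2afz and none of those of H2afv also occur in other genes.

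H2afx encodes H2A.X, whose phosphorylated form marks DNA breaks, and it is the variant gene with a stem-loop as well as a longer annotated end. It was at 43.2, 50.3 and 52.2 CPM in RANKL thymus, against 200, 148 and 212 CPM in control thymus, with a log2 fold change of -1.94 ± 0.18 (edgeR adjusted p = 2.52e-05). H2afj, encoding H2A.J, was at 38.0, 44.6 and 40.7 CPM in RANKL thymus, against 54.5, 57.5 and 73.6 CPM in control thymus. Its groups did not overlap, and its log2 fold change of -0.59 ± 0.17 (edgeR adjusted p = 0.0126) was not called when either RANKL replicate 1 or 3 was left out.

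The 2 macroH2A genes that could be tested moved in opposite directions. MacroH2A carries a large extra domain beside its histone fold and is linked to silent chromatin. H2afy (chr13:56073622-56135626) was at 127, 151 and 170 CPM in RANKL thymus, against 292, 292 and 343 CPM in control thymus, and its log2 fold change was -1.05 ± 0.17 (edgeR adjusted p = 0.000547). H2afy2 (chr10:61738640-61784604) was at 9.21, 5.41 and 12.5 CPM in RANKL thymus, against 5.01, 3.35 and 5.40 CPM in control thymus. RANKL replicate 2 was barely above the highest control library, and the log2 fold change of 0.98 ± 0.35 (edgeR adjusted p = 0.0346) lost its call under limma-voom and without any other single library, though not without RANKL replicate 2. The 3 variant genes that did not pass the filter, H2afy3 (Macroh2a3 in the reference), H2afb1 and H2afb3, had 1 to 4 reads in all.

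Genes of S phase and of histone supply are given as background to these levels. All 25 listed S phase and replication genes fell, with a median log2 fold change of -1.72, among them Pcna, the replication clamp, at 134 ± 18.4 CPM in RANKL and 565 ± 39.3 CPM in control (SD, n = 3 each), Cdc6, which loads the helicase, at 11.9 CPM in RANKL and 66.5 CPM in control, Tyms, which makes thymidylate, at 39.97 CPM in RANKL and 132 CPM in control, and Mcm6, a helicase subunit, at 80.8 CPM in RANKL and 303 CPM in control on the group means. All 10 mitotic genes fell too. Among all tested genes 29.6% were called lower. The summed CPM of the 44 low cluster genes was 0.579%, 0.506% and 0.332% of that of the S phase list in RANKL thymus, against 0.759%, 0.677% and 0.535% in control thymus. The groups overlapped on that scale, with a difference in mean log2 share of -0.50, RANKL minus control. On the same scale H2afx was 4.14%, 3.79% and 4.05% in RANKL and 4.36%, 4.02% and 5.32% in control, again with overlap. H2afv was 3.44%, 2.58% and 3.18% in RANKL and 3.89%, 5.13% and 6.54% in control, all RANKL values lower, while H2afz was 18.4%, 12.8% and 13.6% in RANKL and 10.4%, 12.1% and 11.8% in control, all RANKL values higher. Hist2h2be was 0.145%, 0.178% and 0.372% in RANKL and 0.357%, 0.561% and 0.534% in control, with overlap through RANKL replicate 3 alone. Its difference in mean log2 share was -1.16. H1f0 was 19.6%, 13.9% and 15.9% in RANKL and 1.86%, 2.61% and 3.65% in control. Hist1h1c was 3.06%, 3.54% and 2.19% in RANKL and 0.386%, 0.329% and 0.421% in control. Differences on this scale, and the part of S phase in the histone changes, were not tested.

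**Figure D5:**
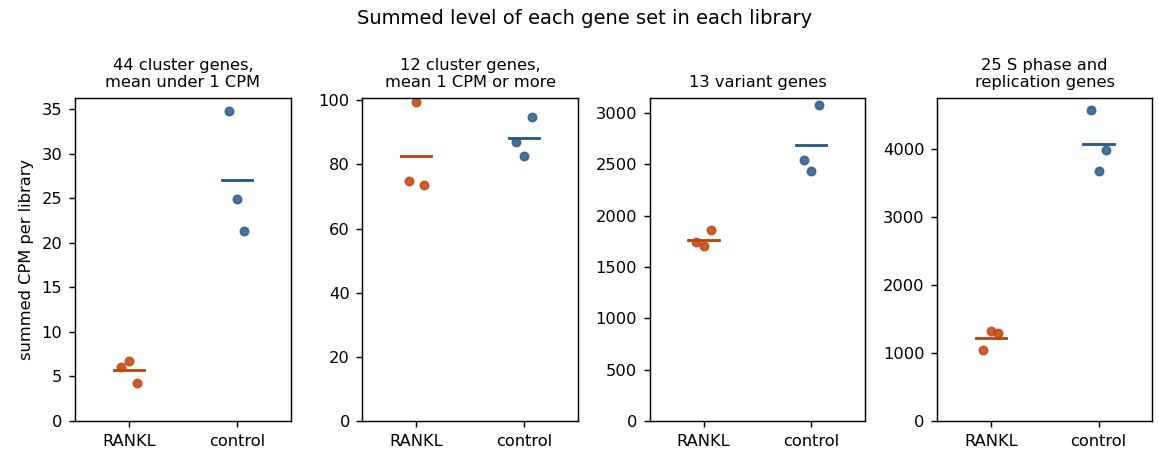
Summed CPM per library (vertical, each panel from 0 on its own scale) for 44 low cluster genes, 12 higher cluster genes, 13 variant genes and 25 S phase genes, RANKL left of control; points are libraries and bars are means. Groups overlap only for the 12 higher cluster genes, at 73.7 to 99.4 CPM in RANKL and 82.6 to 94.9 CPM in control.

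Of 21 genes that transcribe, process or degrade histone mRNA, 17 fell and 4 were not called by edgeR, against 29.6% of all tested genes called lower. Slbp, which binds the stem-loop, was at 39.4, 47.4 and 61.6 CPM in RANKL thymus, against 157, 162 and 197 CPM in control thymus, a log2 fold change of -1.80 ± 0.20 (edgeR adjusted p = 5.63e-05). Npat, the coactivator of cluster histone transcription, was at 26.3, 19.97 and 20.8 CPM in RANKL thymus, against 62.9, 60.6 and 46.6 CPM in control thymus, and fell by 1.34 ± 0.19. Eri1, a nuclease acting on the stem-loop, had a log2 fold change of -1.70, Casp8ap2, a component of histone locus bodies, of -1.67, and Cdk2, the kinase that phosphorylates NPAT, of -1.51, all called. The 4 not called were Zfp473, a zinc finger protein of the processing complex, Cpsf3, a subunit of the cleavage machinery, Lsm10, a part of the U7 particle, and Mblac1, described in human cells as a nuclease of histone pre-mRNA, with log2 fold changes of -0.93 to 0.10.

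Of 30 histone chaperone and deposition genes 24 fell, 1 rose and 5 were not called, against 29.6% of all tested genes called lower and 33.8% higher. Asf1b, a chaperone of newly made H3 and H4, was at 15.96 ± 2.34 CPM in RANKL and 87.8 ± 12.2 CPM in control, and its log2 fold change was -2.46 ± 0.19 (edgeR adjusted p = 9.39e-06). Its relative Asf1a had -1.63, Anp32e, which removes H2A.Z from nucleosomes, -2.19, and Rbbp4, a subunit of the assembly factor CAF-1, -1.39. Ipo4, an importin that carries H3 and H4 into the nucleus, was the one that rose, at 56.0, 76.5 and 57.1 CPM in RANKL thymus against 45.1, 37.8 and 31.5 CPM in control thymus, with a log2 fold change of 0.73 ± 0.19 (edgeR adjusted p = 0.00875). The 5 not called, at -0.34 to -0.08, were Rbbp7, a relative of Rbbp4, Daxx, a chaperone of H3.3, Supt6, which handles histones during transcription, and Vps72 and Znhit1, subunits of the complex that deposits H2A.Z.

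Histone genes outside the symbol rule included 2 that could be tested. Cenpa, the centromeric H3, was at 20.6, 28.5 and 26.4 CPM in RANKL thymus, against 89.5, 106 and 126 CPM in control thymus, a log2 fold change of -2.09 ± 0.19 (edgeR adjusted p = 2.31e-05). H1foo, the linker histone known from oocytes, had 214, 426 and 352 reads in RANKL libraries, against 6, 4 and 8 reads in control libraries, and rose with a log2 fold change of 5.62 ± 0.36 (edgeR adjusted p = 5.51e-06).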

How the data were processed

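Whole-thymus RNA was sequenced in 3 RANKL and 3 control stranded mRNA libraries, per the labels. The authors deposited raw read counts, whole numbers per gene and library. STAR and mm10 (GRCm38) are named in the submitters' processing notes; the counting tool, its strand setting and its annotation were not given in the sources used here, and reads of overlapping or near-identical genes may have been split between them. Library totals ran from 18254870 to 25357060 counts.

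All genes entered 1 fit: filterByExpr, TMM factors and the robust two-sided quasi-likelihood test of edgeR 4.0.16 (R 4.3.3), with Benjamini-Hochberg adjustment over 16096 genes and a threshold of 0.05. Standard errors of log2 fold changes were worked out from the F statistic, and CPM were taken on TMM-scaled totals. The code was tested on simulated counts. Alternatives were other scaling factors, 2 other filters, DESeq2 1.42.0, limma-voom (limma 3.58.1), a threshold of 0.01, a test against a 1.5-fold change and each library left out. The members and the gene lists were chosen with earlier results of these data known. Values per library are given for every tested variant gene, the 12 cluster genes with the highest mean CPM, the 3 largest called changes in each direction among cluster genes (1 rose) and 3 testis genes; other genes are named where a count is 8 or fewer, where they are among the 4 smallest p in a list, and Slbp, Npat, Pcna and Cenpa whatever their outcome. Lists were S phase, mitosis, histone mRNA processing, chaperones and cell type markers; Srcap was not analysed here. Older symbols were matched through the reference tables.

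Stem-loops and shared coding windows of 50 bases came from GENCODE M21 transcripts, and promoters and gene positions from RefSeq GRCm38.p6 tables, the assembly of mm10. Figures were drawn with matplotlib 3.10.9.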

Additional observations from a re-analysis of the deposited data

How the results depend on the processing

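Of 297 values of the 25 histone genes given per library, under the other scalings, filters and tools and with each library left out, 266 kept direction and call, 20 values of 5 genes (H2afy2, H2afj, Hist3h2a, Hist1h4h and Hist1h1e) kept direction but lost the call, and 11 values of 2 genes changed sign without ever being called. The log2 fold change of H3f3b became 0.028 on unscaled library totals, 0.034 with a filter of at least 1 CPM in 3 libraries and 0.012 under limma-voom, and ran from -0.10 to 0.14 with single libraries left out. That of Hist1h2be became -0.058 with no filter and -0.033 under limma-voom, and ran from -0.43 to 0.31 with single libraries left out. The cluster genes called lower numbered 24 at first, 11 with the filter of at least 1 CPM in 3 libraries, which tests fewer genes, 36 with no filter, and 22 to 29 with single libraries left out. With single libraries left out, 20 to 23 of the first 24 were among those called, so the genes changed as well as their number. The variant genes called higher numbered 2 at first, 1 under limma-voom, 0 in the edgeR test against a 1.5-fold change, 1 at an adjusted p under 0.01, and 1 to 2 with single libraries left out; the lost call was that of H2afy2 in each case, and of H1f0 as well against a 1.5-fold change, and the cause was not tested. Of the 21 named genes that were called, 6 lost the call against a 1.5-fold change, the 5 above and H1f0, and the same 5 at an adjusted p under 0.01. Ipo4, the chaperone gene called higher, was not called against a 1.5-fold change, which left 0. Hist1h1c stayed called higher in every alternative, including each library left out. The log2 ratio of the summed CPM ran from -0.53 to -0.27 for cluster genes and from -0.70 to -0.51 for variant genes with single libraries left out. No paired analysis was possible because replicates were numbered by accession and share no number given in the labels; the library titles hold numbers too, and no label says what those numbers mark. Depth limits the cluster genes, of which the median one had 52.5 reads over 6 libraries; the limits were not ranked.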
